A study of Mus musculus with 246 samples.

Results

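The genes described here make, move, break down or sense acetylcholine, and comprise Chat, Slc18a3, Slc5a7, Ache, Chrna3, Chrna4, Chrna5, Chrna7, Chrnb3 and Chrnb4. They were taken by gene symbol, in a list drawn up with earlier results of these data known, and are 10 of the 56691 genes in the deposited table of estimated read counts. All 10 passed the filter on low counts when the regions were compared. RNA was sequenced from 6 regions of the brains of adult male CD1 mice, an outbred strain. These were the dorsomedial thalamus (DMT), the shell of the nucleus accumbens (Nacc), the ventral hippocampus (vHipp), the basolateral amygdala (BLA), the anterior cingulate cortex (ACC) and the prelimbic and infralimbic cortex (mPFC). Each of 41 mice gave 1 library per region, made from polyadenylated RNA of tissue punches with a kit that keeps the strand.

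Ctrl_Veh mice grew up with standard bedding, and their dams were injected with an empty phospholipid gel. ELA_Veh mice underwent early life adversity, a period of sparse bedding and nesting material soon after birth, while their dams carried the empty gel. ELA_SAFit2 mice underwent the same adversity while the gel in their dams released SAFit2, a selective inhibitor of the stress-related co-chaperone FKBP51 that reached the pups through the milk. The study had no Ctrl_SAFit2 group, so an action of SAFit2 without adversity was not measured. In 1 set the mice were taken without a preceding social interaction, 7 per group. In the other set they first met an unfamiliar mouse for 10 minutes, with 6 Ctrl_Veh, 7 ELA_Veh and 7 ELA_SAFit2 mice.

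Acetylcholine is made from choline by the enzyme encoded by Chat, loaded into vesicles by the transporter encoded by Slc18a3, cleaved in the synaptic cleft by the esterase encoded by Ache, and its choline is taken up again by the transporter encoded by Slc5a7. In the striatum it comes from local interneurons. Neurons of the medial habenula, a small nucleus that borders the dorsomedial thalamus, also make it, and are known for nicotinic receptors with alpha3, beta4, beta3 and alpha5 subunits. The alpha4 and beta2 subunits form the most widespread heteromeric nicotinic receptor of the brain, and alpha7 forms receptors without other subunits.

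Several of these genes lie next to each other, and the sequences before their starts are shown because Chrna3, Chrnb4 and Chrna5, neighbours in 1 cluster, had unlike patterns across the regions. Chat and Slc18a3 lie on chromosome 14 on the same strand, with starts 1059 bases apart, so reads from shared upstream exons can be assigned to either gene and the split between them is uncertain. On chromosome 9, Chrna3 and Chrnb4 are read from the minus strand with starts 22.0 kb apart, and Chrna5 is read from the plus strand. The 250 bases before the start of each of these 3 genes, from RefSeq on GRCm38.p6, follow 5′ to 3′ on the gene's own strand. They are chr9:55026563-55026812 for Chrna3, chr9:55048545-55048794 for Chrnb4, and chr9:54980630-54980879 and chr9:54981238-54981487 for the first and second starts of Chrna5. Capitals mark GC boxes, the letters GGGCGG searched on both strands, so that CCGCCC is the same motif on the other strand.
Chrna3: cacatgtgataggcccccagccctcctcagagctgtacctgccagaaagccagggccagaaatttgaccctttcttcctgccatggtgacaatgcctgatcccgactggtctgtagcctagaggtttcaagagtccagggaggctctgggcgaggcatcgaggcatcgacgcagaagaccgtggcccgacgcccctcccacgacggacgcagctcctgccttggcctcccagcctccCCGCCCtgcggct
Chrnb4: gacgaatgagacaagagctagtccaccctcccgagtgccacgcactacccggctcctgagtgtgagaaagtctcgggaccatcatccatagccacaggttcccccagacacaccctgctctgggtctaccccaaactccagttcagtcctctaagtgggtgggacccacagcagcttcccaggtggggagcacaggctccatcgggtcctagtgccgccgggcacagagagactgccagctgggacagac
Chrna5, first start: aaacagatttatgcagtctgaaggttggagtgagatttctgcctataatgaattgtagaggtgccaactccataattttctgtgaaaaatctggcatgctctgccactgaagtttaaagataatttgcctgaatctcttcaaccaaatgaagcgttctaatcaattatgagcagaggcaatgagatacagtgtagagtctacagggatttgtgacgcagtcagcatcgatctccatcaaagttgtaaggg
Chrna5, second start: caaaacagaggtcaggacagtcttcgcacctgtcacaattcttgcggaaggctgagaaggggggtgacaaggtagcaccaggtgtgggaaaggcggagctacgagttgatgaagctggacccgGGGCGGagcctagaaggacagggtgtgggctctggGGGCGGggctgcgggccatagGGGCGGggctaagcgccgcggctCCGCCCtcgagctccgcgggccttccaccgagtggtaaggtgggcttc
The second Chrna5 window held 4 GC boxes, that of Chrna3 held 1, and the other windows shown held 0. Among all 32851 RefSeq windows of 250 bases in the same table, 32.7% held at least 1. Of the 10 genes, 9 were matched to a window. Ache had 4 GC boxes in its window, Chrna4 3, Slc18a3 2, Chrna7 1, and Chat and Slc5a7 0.

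Before the results, the libraries were checked against their labels. Total counts lay between 20804247 and 43351424. Judged by genes whose levels are particular to a mouse, 12 of the 41 Nacc libraries (6 in each set) resembled the other regions of a mouse that their label does not name, and 0 libraries of the other 5 regions did. These 12 stayed in their labelled groups, and Nacc comparisons are also given without them. The punches carried the markers of their regions. All 7 thalamic markers were higher in the DMT than in the mean of the other regions, all 5 hippocampal markers in the vHipp, all 7 striatal projection neuron markers in the Nacc and all 4 basolateral amygdala markers in the BLA. In the BLA all 7 striatal markers and all 7 choroid plexus markers were higher as well. In the DMT all 8 medial habenula markers were higher, with a summed level between 27.7 and 795 CPM.

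Levels are given as CPM, the share of a library's counts scaled to a common total, with TMM factors that correct for differences in library composition, as mean ± SD over the 41 libraries of a region. In punches of whole tissue, fewer cells of a type and less RNA per cell cannot be told apart. A region was compared with the mean of the other 5 by edgeR's quasi-likelihood test, fitted on 17381 genes in the libraries of all regions. The threshold was an adjusted p (Benjamini-Hochberg) of 0.05, and the differences are log2 values with their SE.

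The genes for making and moving acetylcholine were highest in the Nacc, followed by the BLA and the DMT. Chat in the Nacc lay at a lowest, median and highest level of 7.59, 22.3 and 52.7 CPM. In the BLA, Chat ran from 0.688 over a median of 5.90 to 21.7 CPM, and in the DMT from 0.034 over 3.68 to 13.8 CPM. The highest BLA level exceeded the lowest Nacc levels, so these regions overlapped, and 25 of the 41 Nacc libraries lay above every library of the other regions.

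Mean Chat was 24.1 ± 8.90 CPM in the Nacc, 7.52 ± 4.86 in the BLA and 4.05 ± 3.62 in the DMT. The cortical regions had far less, at 0.516 ± 0.812 CPM in the mPFC and 0.371 ± 0.549 in the ACC, which did not differ (adjusted p = 0.227, edgeR). In the vHipp Chat was at 0.061 ± 0.064 CPM, with 10 libraries at 0. In the Nacc Chat was higher than in the mean of the other regions by 4.89 ± 0.143 on the log2 scale (adjusted p = 2.9e-92, edgeR).

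Slc18a3 and Slc5a7 followed the same order of regions. Slc18a3, the vesicular transporter, had 3.47, 10.5 and 29.3 CPM as its lowest, median and highest level in the Nacc, and a mean of 11.5 ± 4.70 CPM. Its mean was 3.81 ± 2.51 CPM in the BLA and 2.38 ± 2.22 CPM in the DMT, and at most 0.263 CPM elsewhere. The libraries overlapped again, with 22 of the 41 Nacc libraries above all libraries of other regions.

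Slc5a7, the choline transporter, was the most abundant of these 3 genes in the Nacc, also per kb of exon (8.98 CPM per kb, against 5.13 for Chat and 4.75 for Slc18a3). Its Nacc levels ran from 16.3 over 50.6 to 102 CPM, and 34 of the 41 libraries lay above every other library. Mean Slc5a7 was 14.1 ± 8.98 CPM in the BLA, 9.97 ± 8.17 in the DMT, 1.49 in the mPFC, 1.25 in the ACC and 0.401 in the vHipp. The mPFC and the ACC did not differ for Slc18a3 (adjusted p = 0.423, edgeR) or Slc5a7 (adjusted p = 0.377, edgeR).

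Ache, the esterase, was present in every region and had another order. It was highest in the DMT, where its lowest, median and highest levels were 142, 173 and 211 CPM. In the Nacc it ran from 90.5 over 135 to 275 CPM and in the BLA from 74.1 over 105.4 to 152 CPM, so that all 3 overlapped. Means were 176 ± 17.6 CPM in the DMT, 140 ± 35.4 in the Nacc and 109 ± 18.0 in the BLA. The ACC (76.1 ± 4.32 CPM) and the vHipp (71.6 ± 7.19 CPM) were not told apart (adjusted p = 0.0587, edgeR), and the mPFC was lowest at 66.2 ± 5.80 CPM. Ache thus spanned a far smaller range between regions than Chat, and in the DMT it exceeded the mean of the other regions by 0.99 ± 0.032 on the log2 scale.

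**Figure D1:**
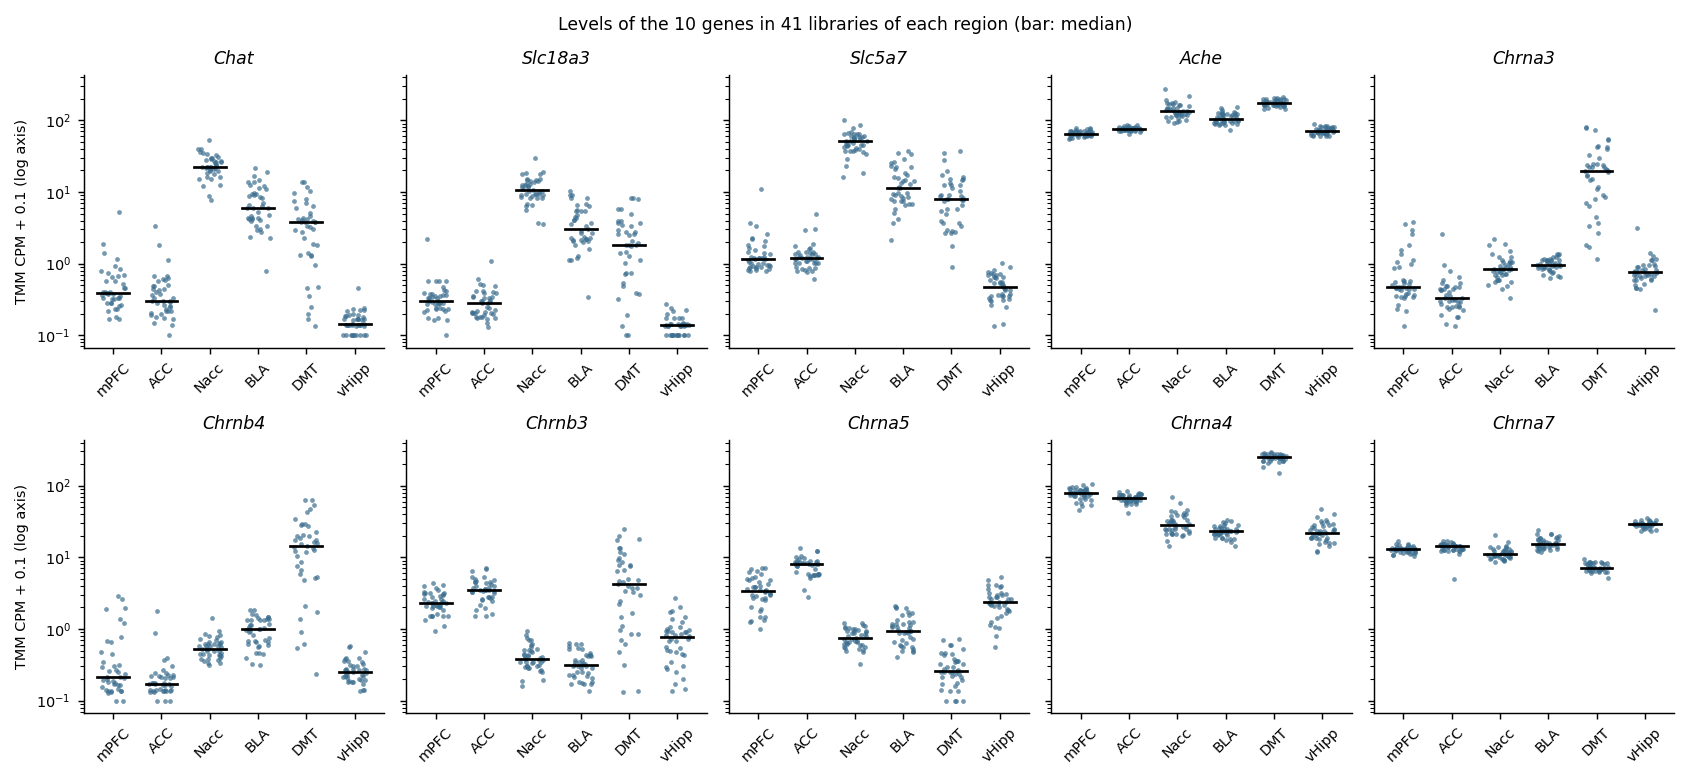
Levels of the 10 genes in each of the 6 regions. Each point is 1 library, 41 per region, on a log axis of CPM with 0.1 added, and the bar is the median. Chat, Slc18a3 and Slc5a7 peak in the Nacc, Chrna3, Chrnb4, Chrnb3, Chrna4 and Ache in the DMT, Chrna5 in the ACC and Chrna7 in the vHipp.

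Of the receptor subunits, Chrna3 and Chrnb4 were far higher in the DMT than elsewhere. Chrna3, the alpha3 subunit of ganglionic and habenular receptors, had a lowest, median and highest DMT level of 1.06, 19.7 and 81.8 CPM, a 77.2-fold span. In the other regions it reached at most 3.77 CPM, and 35 of the 41 DMT libraries lay above that. Its DMT mean was 23.8 ± 20.7 CPM, and elsewhere it was 0.880 (BLA), 0.815 (Nacc), 0.751 (mPFC), 0.724 (vHipp) and 0.326 CPM (ACC). The steps from the BLA to the Nacc, to the mPFC and to the vHipp did not pass (adjusted p between 0.570 and 0.925, edgeR), and the step from the vHipp to the ACC did. Against the mean of the other regions, Chrna3 was higher in the DMT by 5.13 ± 0.122 on the log2 scale (adjusted p = 4.6e-111, edgeR).

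Chrnb4, the beta4 subunit that joins alpha3, ran from 0.132 over a median of 14.5 to 62.997 CPM in the DMT. The 476-fold span is uncertain, since the lowest level rests on 4 counts. The highest level in any other region was 2.83 CPM, and 34 of the 41 DMT libraries exceeded it. Mean Chrnb4 was 18.0 ± 16.3 CPM in the DMT and 0.882 ± 0.418 CPM in the BLA, with lower means in the other 4 regions. Per kb of exon Chrna3 and Chrnb4 had like mean levels in the DMT, 4.52 and 4.83 CPM per kb. The DMT exceeded the mean of the other regions in Chrnb4 by 5.71 ± 0.147 on the log2 scale (adjusted p = 7.26e-104, edgeR).

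Chrnb3, the beta3 accessory subunit, was high in the DMT and, unlike the 2 subunits above, also present in cortex. Its DMT levels were 0.033, 4.19 and 24.9 CPM (lowest, median and highest). The 753-fold span is uncertain, since the lowest level rests on 1 count. The ACC followed with 1.40, 3.42 and 6.94 CPM, so that the regions overlapped widely and only 14 of the 41 DMT libraries lay above all others. Means were 6.06 ± 6.02 CPM in the DMT, 3.57 ± 1.34 in the ACC and 2.34 ± 0.825 in the mPFC, against 0.716 in the vHipp, 0.323 in the Nacc and 0.238 in the BLA. The last 2 did not differ (adjusted p = 0.162, edgeR).

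Chrna5, the alpha5 accessory subunit, had the opposite placement, although its gene is a neighbour of Chrna3 and Chrnb4. It was highest in the ACC, where its levels ran from 2.69 over 8.07 to 13.2 CPM, and 27 of the 41 ACC libraries lay above every library of the other regions. The DMT was lowest, from 0 over 0.159 to 0.615 CPM, with 4 libraries at 0 and 27 libraries below every library elsewhere. Means were 7.68 ± 2.18 CPM in the ACC, 3.53 ± 1.68 in the mPFC, 2.39 ± 1.07 in the vHipp, 0.945 in the BLA, 0.681 in the Nacc and 0.202 ± 0.158 in the DMT. In the DMT Chrna5 fell by 3.36 ± 0.156 on the log2 scale against the mean of the other regions (adjusted p = 4.35e-57, edgeR), and in the ACC it was higher by 2.90 ± 0.090 (adjusted p = 1.28e-86, edgeR). Per kb the DMT held 0.065 CPM of Chrna5 and 4.52 CPM of Chrna3.

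Chrna4, the alpha4 subunit, was the most abundant of the 6 receptor genes per kb in the DMT, at 49.1 CPM per kb. Its DMT levels of 148, 249 and 292 CPM (lowest, median and highest) lay above those of all other regions in 41 of 41 libraries. The next region was the mPFC at 78.1 ± 13.5 CPM, with a highest library of 106 CPM, followed by the ACC (67.0 CPM), the Nacc (30.6), the vHipp (23.4) and the BLA (23.1). The last 2 did not differ (adjusted p = 0.829, edgeR). In the DMT, Chrna4 averaged 247 ± 28.5 CPM and exceeded the mean of the other regions by 2.67 ± 0.046 on the log2 scale (adjusted p = 5.2e-142, edgeR).

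Chrna7, the alpha7 subunit, was highest in the vHipp, where its lowest, median and highest levels were 23.3, 28.9 and 35.5 CPM. There 39 of the 41 libraries lay above all libraries of the other regions. The BLA followed at 15.9 ± 2.80 CPM, then the ACC (13.8) and the mPFC (12.8), which were not told apart (adjusted p = 0.0595, edgeR), and the Nacc (11.4). The DMT was lowest at 7.23 ± 0.918 CPM. Chrna7 was 1.28 ± 0.032 higher in the vHipp on the log2 scale than in the mean of the other regions (adjusted p = 5.67e-107, edgeR).

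Counted over the 10 genes, the DMT had 8 higher and 2 lower (Chrna5 and Chrna7) than the mean of the other regions, where 85.5% of all tested genes passed (42.2% higher and 43.3% lower). The Nacc had 4 higher (Chat, Slc18a3, Slc5a7 and Ache) and 6 lower, where 76.8% of all genes passed (38.7% higher and 38.1% lower). In the BLA 6 were higher and 4 lower (38.5% and 34.9% of all genes, 73.4% in either direction), and in the vHipp 2 were higher and 8 lower (37.6% and 40.4% of all genes, 78% in either direction). In the mPFC 3 were higher and 7 lower (36.4% and 37% of all genes, 73.4% in either direction). In the ACC 3 were higher and 6 lower (34.8% and 39.6% of all genes, 74.4% in either direction), and Chrna7 did not pass (log2 difference 0.01 ± 0.035, adjusted p = 0.866, edgeR). Most genes differ between regions, so these counts alone say little about the 10 genes. The sizes spread from -5.39 for Chat in the vHipp to 5.71 for Chrnb4 in the DMT, and the median over the 10 genes was highest in the DMT (1.83) and lowest in the ACC (-1.28). Chrnb4 in the Nacc (-0.54 ± 0.237, adjusted p = 0.030, edgeR) lost its call with the mouse number as a block (-0.40, adjusted p = 0.102, edgeR), a fit in which the 12 mismatched Nacc libraries kept the number on their label.

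**Figure D2:**
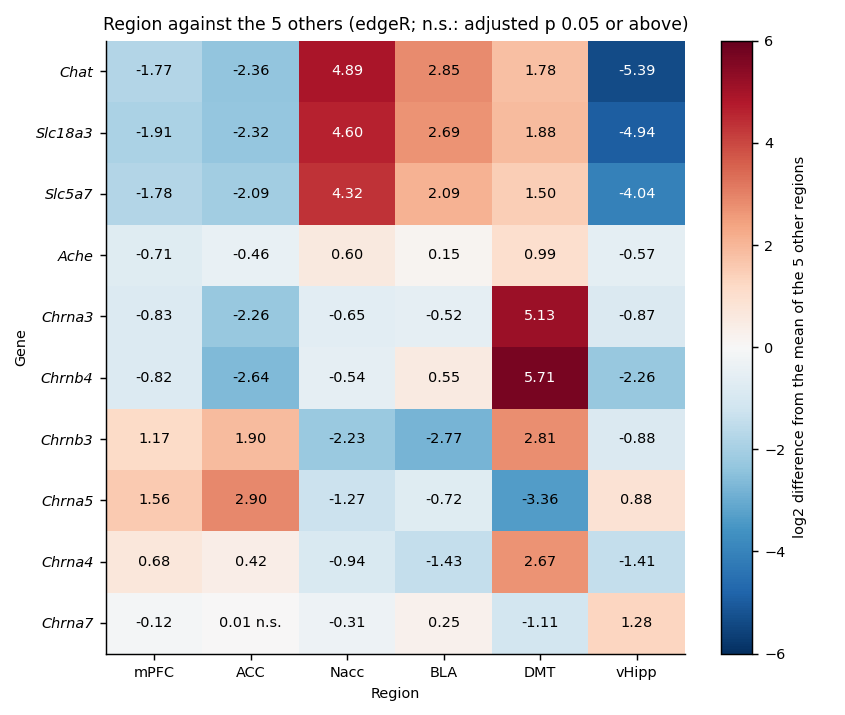
Log2 difference of each gene in each region from the mean of the other 5 regions. Rows are the 10 genes, columns the 6 regions, and the colour and the number in each cell give the difference fitted by edgeR, with n.s. where it did not pass. Chrna3 and Chrnb4 stand at 5.13 and 5.71 in the DMT, and Chrna5 at -3.36 in the DMT and 2.90 in the ACC.

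Of 25 further genes of the pathway, 23 were tested between regions, and Chrnd and Chrng were not. In the DMT 10 were higher, 11 lower and 2 not called, where 42.2% of all genes were higher and 43.3% lower. In the Nacc 11 were higher, 5 lower and 7 not called, where 38.7% of all genes were higher and 38.1% lower. With most genes differing between regions, these counts alone say little about the pathway. Chrnb2, which encodes the beta2 partner of alpha4, stood out in the DMT as Chrna4 did, with 170, 216 and 241 CPM as its lowest, median and highest level and no overlap with the other regions, whose means lay between 69.5 and 81.6 CPM. Its difference from the mean of the other regions was 1.52 ± 0.013 on the log2 scale (adjusted p = 2.04e-205, edgeR). Of the 5 muscarinic receptors 1 was higher and 4 were lower in the DMT. Chrm1, the M1 receptor, had a mean of 6.91 CPM there and between 184 and 300 CPM in the other regions.

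Lynx1, a membrane-anchored modulator of nicotinic receptors, was also highest in the DMT (553 ± 44.3 CPM), with a difference of 0.52 ± 0.032 on the log2 scale. Prima1, the anchor that holds acetylcholinesterase in neuronal membranes, was highest in the Nacc at 9.42 ± 2.11 CPM (log2 difference 2.35 ± 0.078, adjusted p = 5.62e-82, edgeR). Chrna2, another alpha subunit, was on the contrary nearly absent from the DMT, with 31 of 41 libraries at 0 and a mean of 0.014 CPM, against 3.11 ± 1.76 CPM in the BLA and 2.84 ± 1.97 CPM in the Nacc.

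Within the DMT the levels differed greatly from punch to punch, and the genes moved together with markers of the medial habenula. The 8 markers (Tac2, Gng8, Pou4f1, Nwd2, Lrrc55, Gpr151, Wif1 and Avil) all had medians above 1 CPM there. Their summed level ran from 27.7 over 208 to 795 CPM, while the sum of the thalamic markers lay between 1760 and 3182 CPM. Choroid plexus markers, 6 of 7 of which were higher in the DMT, also varied, from 7.06 over 33.1 to 1380 CPM, and their part in the results was not tested. Nwd2 and Lrrc55 were also abundant in cortex. There the sum of the 8 medial habenula markers was 149 ± 19.9 CPM (mPFC) and 147 ± 15.6 CPM (ACC), above that of the lowest DMT libraries. Across the 41 DMT libraries log2 Chrna3 correlated with the log2 marker sum at Pearson's r = 0.97 and Spearman's rho = 0.96 (permutation p = 1e-05 for both, the smallest that 100000 permutations can give, adjusted p = 1.43e-05 over the 10 genes).

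Chrnb3 (r = 0.97, rho = 0.96), Chrnb4 (r = 0.95, rho = 0.97), Chat (r = 0.95, rho = 0.95), Slc18a3 (r = 0.95, rho = 0.97) and Slc5a7 (r = 0.95, rho = 0.96) had correlations of the same size and the same permutation p. Without the 2 libraries farthest from the median of the marker sum, r stayed between 0.94 and 0.96 for these 6 genes, and as deviations from the means of the 6 groups between 0.95 and 0.97. With Nwd2 and Lrrc55 left out of the sum it was between 0.92 and 0.96. The 6 genes thus had nearly the same order of libraries as the markers. Chrna5, at its far lower level, had r = 0.73 and rho = 0.74 (adjusted permutation p = 1.43e-05 for both), and 0.68 without the 2 farthest libraries.

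The other genes behaved otherwise. Ache had r = 0.54 and rho = 0.45 (adjusted permutation p = 0.000422 and 0.0035), which dropped to r = 0.38 without the 2 farthest libraries. Chrna4 ran against the markers, at r = -0.55 and rho = -0.56 (adjusted permutation p = 0.000225 and 0.000212), or -0.53 without the 2 farthest libraries. For Chrna7 no relation passed (r = -0.26, rho = -0.18, adjusted permutation p = 0.103 and 0.262). The punch with the least marker RNA, from an ELA_Veh mouse without social interaction, had 1.605 CPM of Chrna3 and the highest Chrna4 level, 292 CPM. The punch with the most, from ELA_SAFit2 mouse 15 without social interaction, had 77.4 CPM of Chrna3 and the lowest Chrna4 level, 148 CPM. It also had the lowest sum of thalamic markers, 1760 CPM, and the part of these markers in the Chrna4 relation was not tested. An ELA_SAFit2 mouse taken after social interaction had the highest Chrna3 and Chrnb4 levels, 81.8 and 62.997 CPM.

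**Figure D3:**
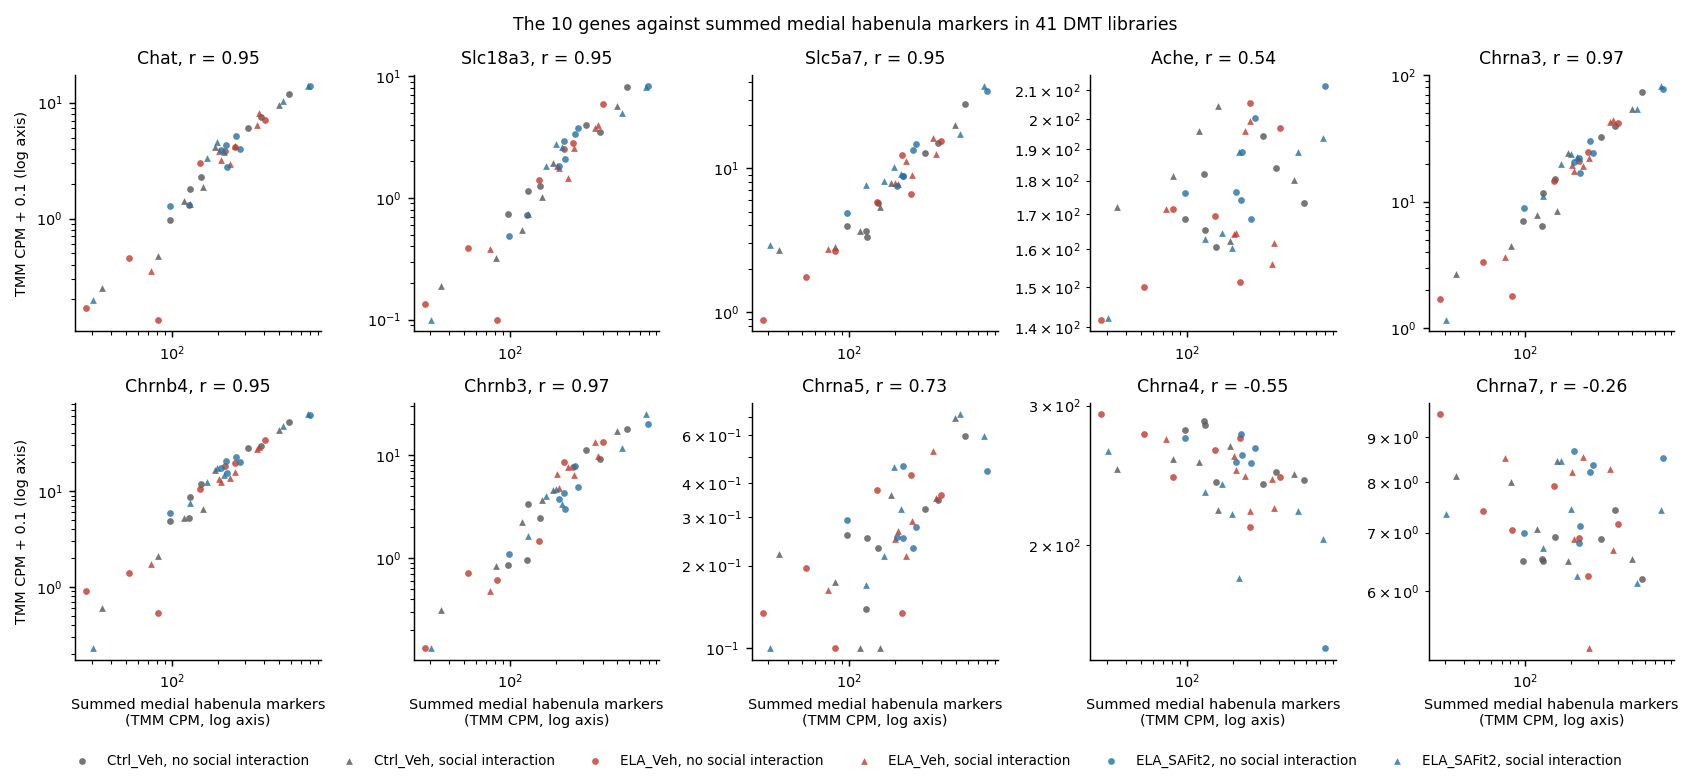
Levels of the 10 genes in the 41 DMT libraries against the summed level of 8 medial habenula markers, both as CPM on log axes (0.1 added to the genes). Each point is 1 mouse, colours give the condition, and circles and triangles are mice without and with social interaction. Chrna3, Chrnb4, Chrnb3, Chat, Slc18a3 and Slc5a7 rise with the markers (r between 0.95 and 0.97), and Chrna4 falls with them (r = -0.55). The groups overlap along the axis, but the marker sum of ELA_Veh mice reached at most 402 CPM, and the highest of all libraries had 795 CPM.

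In the Nacc the genes for making and moving acetylcholine tracked 6 markers of cholinergic neurons (Lhx8, Gbx1 and Isl1 among them), all of which were higher in the Nacc. Their sum ran from 24.8 over 71.8 to 216 CPM. Pearson's r (and Spearman's rho) was 0.97 (0.97) for Chat, 0.96 (0.95) for Slc18a3, 0.96 (0.95) for Slc5a7 and 0.93 (0.94) for Ache, with an adjusted permutation p of 2e-05 for each r and 2.5e-05 for each rho. Without the 2 libraries farthest from the median of the marker sum, r was between 0.93 and 0.96. Ache, which had only a loose relation to the habenular markers in the DMT, thus followed the cholinergic markers in the Nacc. Both values of a pair come from the same library, so a mismatched label does not touch these correlations.

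Chrna4 (r = -0.63, rho = -0.64, adjusted permutation p = 2e-05 and 4e-05) and Chrna7 (r = -0.59, rho = -0.54, adjusted permutation p = 0.000117 and 0.00065) were lower where the cholinergic markers were higher. So was Chrna5 (r = -0.37, rho = -0.42, adjusted permutation p = 0.0223 and 0.00964). Without the 2 farthest libraries r was -0.66, -0.61 and -0.37 for these 3 genes. Markers of cortical excitatory neurons also varied among the Nacc punches, with a sum between 93.7 and 1367 CPM. Their part in these relations was not tested. Chrnb4 (r = -0.14, rho = -0.09) and Chrnb3 (r = -0.06, rho = -0.07) had no relation past the threshold. For Chrna3, r = 0.32 missed it and rho = 0.39 passed it (adjusted permutation p = 0.0552 and 0.0159), and without the 2 farthest libraries neither passed (r = 0.19, rho = 0.32, adjusted permutation p = 0.320 and 0.0589).

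**Figure D4:**
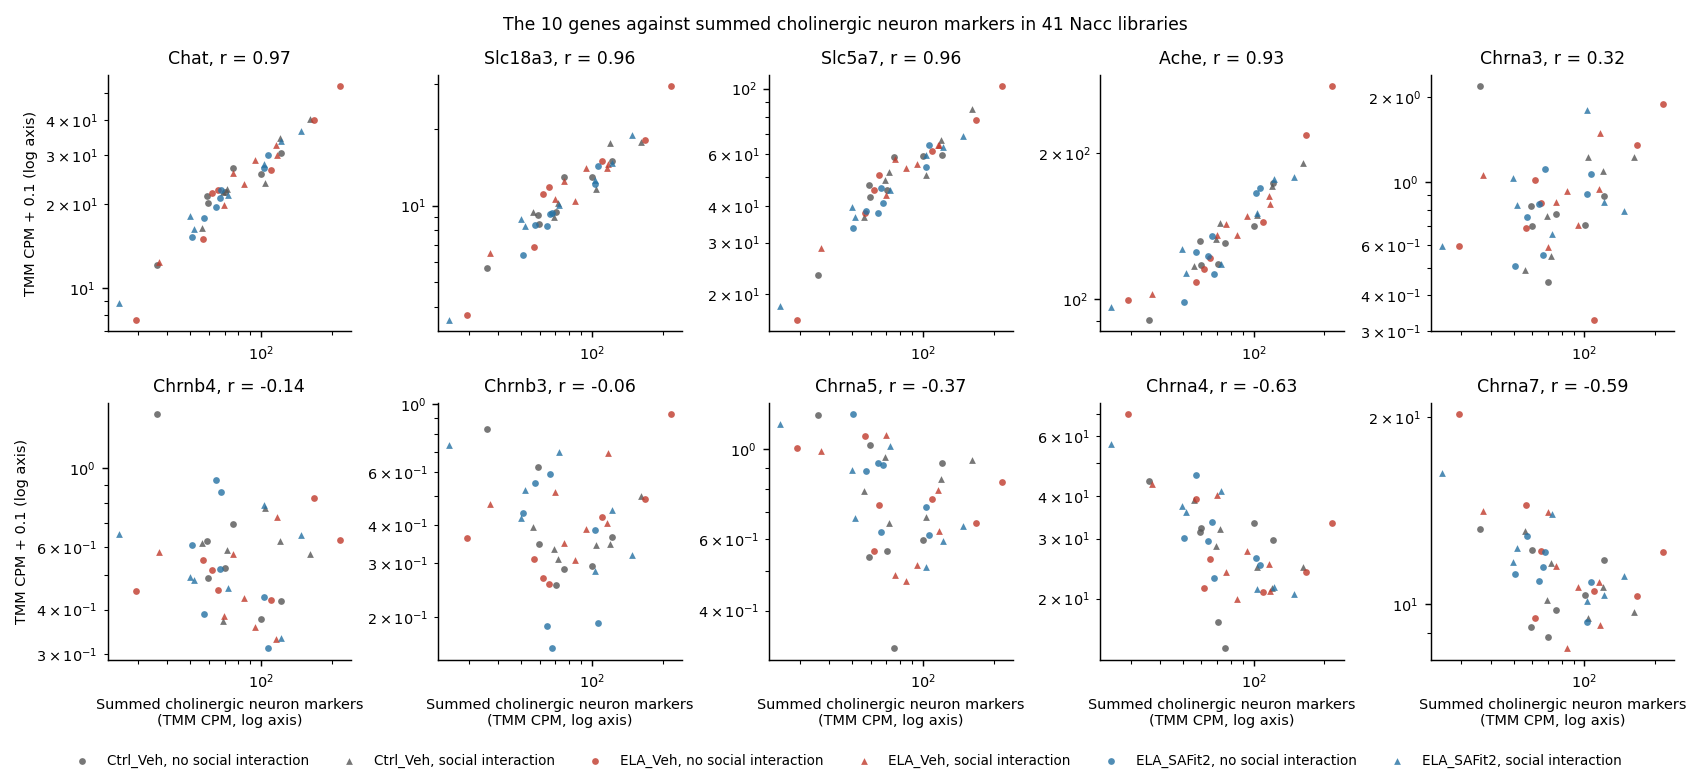
Levels of the 10 genes in the 41 Nacc libraries against the summed level of 6 cholinergic neuron markers, both as CPM on log axes (0.1 added to the genes). Each point is 1 library, colours give the condition on its label, and circles and triangles are without and with social interaction. Chat, Slc18a3, Slc5a7 and Ache rise with the markers (r between 0.93 and 0.97) and Chrna4 falls (r = -0.63).

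In the BLA the cholinergic marker sum ran from 10.5 to 63.3 CPM, and Chat, Slc18a3, Slc5a7 and Ache rose with it there too. There r (and rho) was 0.95 (0.96) for Chat, 0.94 (0.94) for Slc18a3, 0.96 (0.95) for Slc5a7 and 0.82 (0.83) for Ache, and Chrnb4 ran against the markers at -0.76 (-0.75), each with an adjusted permutation p of 2e-05. Without the 2 farthest libraries r was 0.96, 0.95, 0.96, 0.81 and -0.76 in the same order of genes. Unlike in the Nacc, Chrna4 had no relation past the threshold (r = -0.12, rho = -0.16, adjusted permutation p = 0.521 and 0.415). Chrna5 did (r = -0.44, rho = -0.43, adjusted permutation p = 0.00585 and 0.00815), and Chrna7 passed by r = -0.36 and missed by rho = -0.30 (adjusted permutation p = 0.0317 and 0.0766). Without the 2 farthest libraries r was -0.41 for Chrna5 and -0.24 for Chrna7, which no longer passed. In the BLA the striatal marker sum lay between 648 and 3848 CPM, and its part in these relations was not tested. In the mPFC the low levels of Chrna3 and Chrnb4 moved with markers of the olfactory bulb, all 5 of which were higher in mPFC punches than in the mean of the other regions. Their sum ran from 8.11 over 19.3 to 389 CPM, and r was 0.93 for Chrnb4 (rho = 0.76) and 0.89 for Chrna3 (rho = 0.75), with an adjusted permutation p of 3.33e-05 for r and 5e-05 for rho. Without the 2 farthest libraries r was 0.91 and 0.85. In the ACC, Chat had r = 0.71 with the summed markers of striatal projection neurons (adjusted permutation p = 5e-05), but rho was 0.25 (adjusted permutation p = 0.208), and r dropped to 0.45 without the 2 farthest libraries. ELA_Veh mouse 61, taken after social interaction, had the highest Chat level in both cortical regions, 3.23 CPM in the ACC and 5.11 CPM in the mPFC. The same 2 libraries had the highest striatal marker sums of their regions, 1261 CPM in the ACC (median 178) and 1358 CPM in the mPFC (median 163). Whether Chat moved with these markers in the mPFC was not tested. The relations in the BLA, the mPFC and the ACC were looked for after the values were seen.

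The genes most like a member were sought among all 17381 genes over the 41 libraries of the region where the member was highest, by Pearson's r of log2 levels. For Chat in the Nacc these were Slc5a7, Slc10a4 and Slc18a3 (r = 0.98 for each), and for Chrna3 in the DMT they were Chat (0.99), Chrnb4 (0.99) and Slc18a3 (0.98). Chrnb4 was most like Chrna3 (0.99), Chat (0.98) and Tac2 (0.98), and Chrnb3 like Nwd2, Gm5741 and Chrna3 (0.96 for the last). Members were thus among the nearest genes of other members in both regions.

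For Chrna4, Chrna5 and Ache the nearest genes came from outside the 10 genes. Chrna4 in the DMT was most like Nacc2 (0.93), Atp2b1 and Brsk2 (0.92 for both). For Chrna5 in the ACC they were Fam163b (0.91), H60b and Tbr1 (0.87 for both), and for Ache in the DMT Rhbdl3, Inhba (0.86) and Olfm2 (0.85). A mouse with a high level in 1 region did not have it in the others as a rule. Over the 10 pairs of regions without the Nacc, the median r across 41 mice lay between -0.09 and 0.20 for the 10 genes, and the highest single pair was Chrnb3 in the mPFC and the ACC (0.67).

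Whether adversity or SAFit2 changed these genes was tested in each region and set, in 3 comparisons (ELA_Veh and ELA_SAFit2 against Ctrl_Veh, and ELA_SAFit2 against ELA_Veh). Without social interaction 0 of 174 tests of the 10 genes passed the threshold, where 0% of all 275076 tests of all genes did. At an unadjusted p under 0.05, edgeR gave 7 of these tests (4.02%, against 4.36% over all genes) and DESeq2 11. The shares over all genes, here and below, are those of edgeR. The DESeq2 counts were not set against a DESeq2 share over all genes, so no excess can be read from them. After social interaction 0 of 168 passed (0.000365% of all tests), with 3 at an unadjusted p under 0.05 by edgeR (1.79%, against 3.89% over all genes) and 2 by DESeq2. With both sets averaged 0 of 174 passed (0.00421% of all tests), with 7 at an unadjusted p under 0.05 by edgeR (4.02%, against 4.73% over all genes) and 8 by DESeq2. Chat and Slc18a3 were too low to be tested in the vHipp, as was Chrnb4 in the vHipp and the ACC after social interaction. These tests do not show that the groups were alike, since the spread between punches was wide.

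In the DMT, Chrna3 of mice without social interaction had lowest, median and highest levels of 6.32, 15.04 and 73.8 CPM in Ctrl_Veh, 1.605, 14.4 and 41.7 CPM in ELA_Veh, and 8.86, 22.2 and 77.4 CPM in ELA_SAFit2. The 3 groups overlapped over most of their ranges. ELA_Veh differed from Ctrl_Veh by -0.80 ± 0.66 on the log2 scale, and ELA_SAFit2 from ELA_Veh by 0.91 ± 0.66. In the same libraries the habenular marker sum had medians of 155, 154 and 227 CPM and a lowest value of 27.7 CPM in ELA_Veh. With the log2 of the sum of these markers as a covariate, here from CPM without TMM factors, the Chrna3 differences became -0.11 ± 0.19 and 0.08 ± 0.19. For Chrnb4 they went from -0.73 ± 0.72 to -0.14 ± 0.24 and from 0.96 ± 0.71 to 0.19 ± 0.24. The differences of these 2 genes thus shrank along with their errors. Chrnb3 instead changed sign, from -0.51 ± 0.83 to 0.21 ± 0.30 for ELA_Veh against Ctrl_Veh and from 0.49 ± 0.83 to -0.47 ± 0.30 for ELA_SAFit2 against ELA_Veh. Chrna7, with no relation to the markers, kept its difference of ELA_SAFit2 from Ctrl_Veh (0.22 ± 0.085 and 0.23 ± 0.086). Of the 10 genes, 0 passed the adjusted threshold with or without the covariate.

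After social interaction the order of the Chrna3 medians was 8.03 CPM in Ctrl_Veh, 19.5 CPM in ELA_Veh and 22.4 CPM in ELA_SAFit2, with ranges of 2.59 to 53.9, 3.55 to 43.9 and 1.06 to 81.8 CPM. These groups overlapped as well. Chrna4 in the DMT had medians of 247, 263 and 259 CPM without social interaction and of 252, 244 and 221 CPM after it (Ctrl_Veh, ELA_Veh and ELA_SAFit2). In the latter set ELA_SAFit2 differed from Ctrl_Veh by -0.16 ± 0.067 (unadjusted p = 0.0290, adjusted p = 0.982, edgeR).

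In the Nacc, Chat of mice without social interaction had medians of 21.9, 22.3 and 20.9 CPM in Ctrl_Veh, ELA_Veh and ELA_SAFit2. The ELA_Veh range of 7.59 to 52.7 CPM enclosed the other groups, at 11.98 to 30.4 CPM and 15.1 to 29.8 CPM. The log2 difference of ELA_Veh from Ctrl_Veh was 0.23 ± 0.29, and without the mismatched libraries it was -0.06, so that its sign rested on them. Slc5a7 moved likewise, from 0.22 ± 0.28 to -0.01. None of these values passed the threshold (adjusted p = 0.857 for Chat and 0.855 for Slc5a7 with all libraries, edgeR).

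The smallest unadjusted p among the 10 genes belonged to Chrna4 in the BLA of mice without social interaction. Its lowest, median and highest levels were 14.4, 20.7 and 22.7 CPM in ELA_Veh, 21.3, 25.4 and 33.4 CPM in ELA_SAFit2 and 17.4, 22.98 and 26.8 CPM in Ctrl_Veh, so that all groups overlapped. ELA_SAFit2 was above ELA_Veh by 0.37 ± 0.11 (unadjusted p = 0.00239, adjusted p = 0.9996, edgeR). After social interaction the BLA medians were 24.0 CPM in Ctrl_Veh, 21.3 CPM in ELA_Veh and 24.7 CPM in ELA_SAFit2, again with overlap.

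Chat in the ACC, at levels near the limit of detection, was next. Without social interaction it ran from 0 over 0.122 to 0.492 CPM in Ctrl_Veh, from 0.077 over 0.519 to 1.74 CPM in ELA_Veh and from 0.096 over 0.199 to 0.384 CPM in ELA_SAFit2, with overlap between all groups. ELA_Veh differed from Ctrl_Veh by 1.601 ± 0.54 (unadjusted p = 0.00695, adjusted p = 0.701, edgeR). The highest of these libraries belonged to ELA_Veh mouse 37, with a striatal marker sum of 834 CPM (median of the ACC libraries 178 CPM). The part of striatal markers in this difference, whose relation to ACC Chat passed by r and not by rho, was not tested.

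In the mPFC of mice without social interaction, ELA_SAFit2 differed from ELA_Veh in Chrnb4 by 2.40 ± 1.05 and in Chrna3 by 1.53 ± 0.68 (unadjusted p = 0.0329 and 0.0360, adjusted p = 0.899 for both, edgeR). Chrnb4 had medians of 0.037 CPM in ELA_SAFit2 and 0.067 CPM in ELA_Veh, so the medians ran against the fitted difference, and the ELA_SAFit2 range of 0 to 2.83 CPM enclosed that of ELA_Veh. These are the mPFC levels that moved with olfactory bulb markers, whose part in the difference was not tested.

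**Figure D5:**
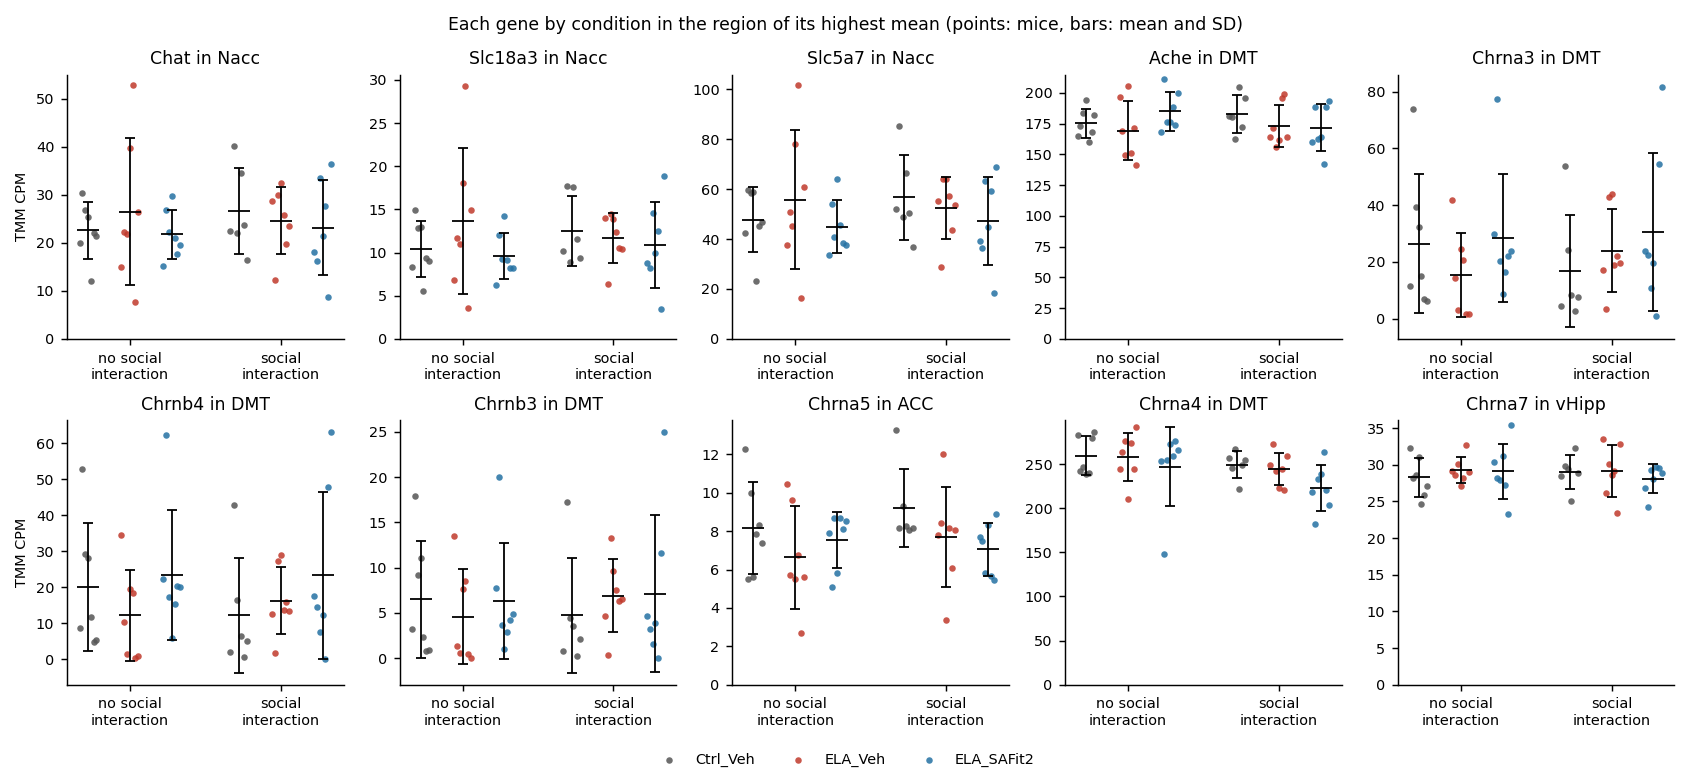
Levels of the 10 genes by group in mice without and with social interaction, each in the region where its mean was highest, as CPM on linear axes. Each point is 1 mouse, the wide bar is the mean and the whiskers are 1 SD, with 6 or 7 mice per group. Within each set the groups overlap in every panel.

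The meeting with an unfamiliar mouse was compared with no meeting, averaged over the 3 conditions. Of the 10 genes 0 of 58 tests passed, where 2.64% of 94976 tests over all genes and regions did, and 2 had an unadjusted p under 0.05 by edgeR (3.45%, against 13.2% over all genes) and 2 by DESeq2. These were Chrnb4 in the ACC (-1.13 ± 0.51, adjusted p = 0.241, edgeR) and Chrna7 in the BLA (-0.18 ± 0.071, adjusted p = 0.192, edgeR). Chrna7 in the BLA ran from 12.6 over 16.4 to 24.0 CPM without the meeting and from 11.9 over 14.7 to 20.9 CPM after it, and the sets overlapped. Whether the response to the meeting differed between conditions was also tested, and 0 of 174 tests passed (0.00772% of all tests), with 3 at an unadjusted p under 0.05 by edgeR (1.72%, against 3.97% over all genes) and 3 by DESeq2.

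Among the further pathway genes 1 of 123 tests of the meeting passed, where 2.64% of the tests over all genes and regions did. It was in the BLA, where 1.49% of all genes passed. Chrnb2 was lower there after the meeting by -0.11 ± 0.023 on the log2 scale (adjusted p = 0.00951, edgeR). Chrna4, its usual partner, had no such call in the BLA. In the comparisons of conditions 0 of 348 pathway tests passed in each set (0% of all tests without the meeting and 0.000365% after it). At an unadjusted p under 0.05, edgeR gave 10 without the meeting (2.87%, against 4.36% over all genes). After it there were 14 (4.02%, against 3.89% over all genes).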

How the data were processed

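RNA of 6 brain regions from each of 41 mice was analysed. The authors counted reads with salmon and merged the estimates to genes, and the deposited values are estimated counts, unscaled for depth or length. The submitters' processing notes name STAR, DESeq2 and the build GRCm39 (mm39) without versions. Of the values 12.12% were not whole, and these were rounded.

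Groups and mouse numbers were taken from the labels. Total counts of 20804247 to 43351424 per library leave a large counting error below about 1 CPM. GENCODE M21 gave the gene type for 52073 of the 56691 identifiers and RefSeq, by symbol, for another 978, while 3640 without a type were dropped. Tests took protein-coding genes whose counts summed to 100 or more and were above 0 in 6 or more libraries. They were run with edgeR 4.0.16 under R 4.3.3, with TMM factors, quasi-likelihood F tests and the Benjamini-Hochberg method. Regions were compared in 1 fit of all libraries with group as a covariate, conditions within each region and set, and sets in 1 fit per region. Levels per kb used merged exon lengths of M21. Correlations used log2 CPM with a pseudocount of 0.1 CPM and 100000 permutations (two-sided), with Benjamini-Hochberg adjustment over the 10 genes. The remaining steps ran in SciPy 1.17.1, pandas 2.3.3, NumPy 2.4.6 and Matplotlib 3.10.9 under Python 3.11.15.

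By the labels a mouse number marks the same mouse in all regions, which the 12 mismatched Nacc libraries go against, and it was the block of an alternative fit of the regions. The mice behind the libraries were checked with 60 genes per region. The other alternatives were DESeq2 1.42.0, its size factors, no filter, each set alone, no mismatched Nacc libraries, all 41 libraries of a region in the fit of conditions, a covariate of medial habenula markers in the DMT and other forms of the correlations. On simulated counts of ELA_Veh against Ctrl_Veh in the DMT without social interaction (15212 genes), edgeR recovered 94.0% of 199 genes changed by 1.5 on the log2 scale, with 10 false calls. The changed genes were drawn at random from all filtered genes. In the measured data of this comparison the SE was 0.66 for Chrna3, 0.72 for Chrnb4 and 0.83 for Chrnb3, so the share recovered cannot be carried over to these genes. For the DMT against the other regions (17345 genes) it recovered 97.5% of 200 genes changed by 1, with 19 false calls.

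The genes, marker lists and pathway list were chosen with earlier results of these data known. Named in the text are the 10 genes, the 3 genes most correlated with each (those of Chrna7 and 1 marker's name are not reported here), listed markers, and of the pathway list the genes called between conditions or sets, the most abundant of each list and examples in list order. Sequences came from RefSeq for GRCm38.p6. A genome of the build of the counts was not used here.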

Additional observations from a re-analysis of the deposited data

Results flagged for a closer look

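In 7 of the 60 combinations of gene and group taken in the region where the gene's mean was highest, 1 mouse lay far from the rest of its group by Dixon's criterion. For independent, normally distributed values about 1 of 20 meet it. The DMT levels were skewed to high values and several of the genes moved together, so the 7 cannot be set against that rate. Of these, 4 belong to 1 DMT library, that of ELA_SAFit2 mouse 15 without social interaction. It had the highest Chrna3 level of its group (77.4 CPM, next 29.9), the highest Chrnb3 (20.02 CPM, next 7.75) and the highest Chrnb4 (62.3 CPM, next 22.4), and the lowest Chrna4 level (148 CPM, next 254). Its summed medial habenula markers, 795 CPM, were the highest of the 41 DMT libraries, and its summed thalamic markers, 1760 CPM, were the lowest. Another 2 belong to the DMT library of Ctrl_Veh mouse 25 after social interaction, with Chrnb3 at 17.2 CPM (next 4.47) and Chrnb4 at 42.8 CPM (next 16.4). Its marker sum, 498 CPM, was the highest of its group. The last was Chrna5 in the ACC of Ctrl_Veh mouse 17 after social interaction, at 13.2 CPM (next 9.29).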

How the results depend on the processing

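Of 420 alternative values of the region differences, 409 kept their direction and their side of the threshold, 9 lost their call and 2 changed sign. Chrna7 in the ACC, which was not called, changed from 0.01 to -0.015 on the log2 scale in mice without social interaction and to -0.00052 without the mismatched Nacc libraries. With the labelled mouse number as replicate block, pairing regions, 9 of the 10 genes were called in the Nacc, Chrnb4 losing its call, and no other call of a region changed. Chrnb4 also lost it with no filter (-0.54, adjusted p = 0.0548, edgeR) and within each set alone. The other losses were in 1 set alone or both, for Chrna7 and Chrnb4 in the mPFC and Chrna3 and Chrnb4 in the BLA, and none concerned a gene in the region where it was highest. No paired analysis of the conditions was possible because each mouse was in 1 condition. In every alternative run for conditions and sets, including DESeq2, 0 of the 10 genes were called. Tests at an unadjusted p under 0.05 rose from 7 to 11 with DESeq2 (without social interaction) and from 3 to 7 with the habenular covariate (after it). The covariate was fitted in the DMT only, shares over all genes were not set beside these counts, and the cause was not tested. After social interaction, Slc5a7 in ELA_SAFit2 against Ctrl_Veh went from 0.93 ± 0.54 to 0.40 ± 0.17 with the covariate. Chrnb3 in ELA_SAFit2 against ELA_Veh went from 0.06 ± 0.81 to -0.50 ± 0.22. As deviations from group means, the correlation of Chrna3 with cholinergic markers in the Nacc passed the threshold (r = 0.32, adjusted permutation p = 0.0492), and those of Chrna3 and Chrnb4 with striatal markers in the ACC changed sign, to r = 0.023 and 0.025. Counts limit Chat, Slc18a3 and Chrnb4 in the cortex and vHipp and Chrna5 in the DMT, where most libraries were under 1 CPM.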
